A study of Rattus rattus with 23 samples.

Results

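The genes described here are 9 squamous differentiation genes of the rat: Sfn, Dsp, Dsg2, Jup, Ppl, Evpl, Tgm1, Tgm3 and Sprr1a. They were taken by the gene symbol of the platform annotation and are measured by 10 of the 31099 probe sets of the array, since Dsp has a second probe set. In all, 14217 genes had a probe set with a single symbol. Expression was measured on Affymetrix Rat230_2 arrays, with 1 array for each of 23 male Sprague-Dawley rats, 10 weeks old by the study's design text and 60 days old by the sample labels. Laser capture took the nasal respiratory lining at the place where it is injured and regenerates, and its RNA was amplified in 2 rounds. Exposed rats breathed 200 ppm hydrogen sulfide (H2S), a gas that blocks mitochondrial respiration, through the nose for 3 h a day. After 1 day of exposure, 4 rats were taken at 3 h, 3 rats at 6 h and 4 rats at 24 h, counted from its start, and after 5 days another 4 rats were taken at 144 h. Where a time is written below as after H2S, it is the time given here and is not counted from the end of exposure. Rats that breathed air instead were taken at 24 h (4 rats) and at 144 h (4 rats). No air rats of 3 h or 6 h were analysed here, so these 2 groups were compared with air rats of 24 h, which differ from them by time as well. For animals 6, 14 and 18 a protocol label states 5 days although their titles place them at 3 h or 24 h, and the titles were followed.

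Squamous differentiation is the programme by which cells of a stratified epithelium strengthen their desmosomes, fill with keratins and build a cornified envelope, a layer of cross-linked protein under the cell membrane. Desmosomes anchor keratin filaments at cell contacts, plakin proteins tie those filaments to the envelope, and transglutaminases cross-link the envelope's precursors. In the nose, stratified squamous epithelium lines the vestibule at the front, while the respiratory lining behind it consists of ciliated, secretory and basal cells. Repeated injury can replace a respiratory lining with a squamous one, a change known as squamous metaplasia. Which of the rats carried transcripts of this programme, and whether they differed with exposure, is the question addressed here.

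The deposited signals are intensities on a linear scale, given here for each animal in the order of animal numbers, and changes are differences of log2(signal + 16) each with its standard error (SE) from the fit. This scale understates changes at low signal. No detection calls were used, and each array's median signal, between 136 and 341, serves as a mark of low signal. The labelled tissue showed its markers: the summed signal of 9 ciliated cell genes was between 6010 and 68260 on the 23 arrays. The arrays of animal 18 (air, 24 h) and animal 22 (air, 144 h) stood apart, with median correlations to the other arrays of 0.408 and 0.685, against 0.820 to 0.900 for the remaining 21. The array of animal 25 (H2S, 144 h) lay within that range at 0.860, and carried the squamous transcripts described below. The number of arrays sets the precision, and in such bulk samples fewer cells of a type and less RNA per cell cannot be told apart.

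None of the 9 members that could be tested passed the threshold of an adjusted p of 0.05 (limma, Benjamini-Hochberg over 19822 tested probe sets) in any H2S against air comparison. At 3 h, 0 members were called, beside 0.0807% of all tested probe sets. At 6 h the count was 0 of 9 beside 0.00504%, at 24 h it was 0 of 9 beside 0.0101%, and at 144 h it was 0 of 9 beside 0% of all tested probe sets. At an unadjusted p of 0.05, 2 members passed at 3 h (Sfn and Tgm3; 9.8% of all tested probe sets did), 0 at 6 h (5.81%), 1 at 24 h (Tgm3; 8.09%) and 3 at 144 h (Sfn, Dsp and Ppl; 7.8%). The median change over all 10 member probe sets was 0.35 at 3 h, 0.33 at 6 h, 0.36 at 24 h and 0.99 at 144 h, where the medians of all tested probe sets were 0.09, 0.08, 0.07 and -0.02. The same 4 air rats of 24 h serve the first 3 of these comparisons, whose values are therefore not independent. Without animal 25, the median of the members at 144 h was 0.06.

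Separation of the groups was counted as well, over 31042 probe sets without the controls. At 3 h, 1 member (Sfn) had all exposed rats above all air rats, beside 2.16% of all probe sets, and 0 had them below, beside 1.55%. At 6 h it was 0 above (1.99%) and 0 below (2.64%), and at 24 h 0 above (1.58%) and 0 below (1.66%). At 144 h it was 1 above (Dsp; 1.82%) and 0 below (3.93%). Between air rats of 144 h and of 24 h it was 0 above (1.2%) and 0 below (0.886%).

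**Figure D1:**
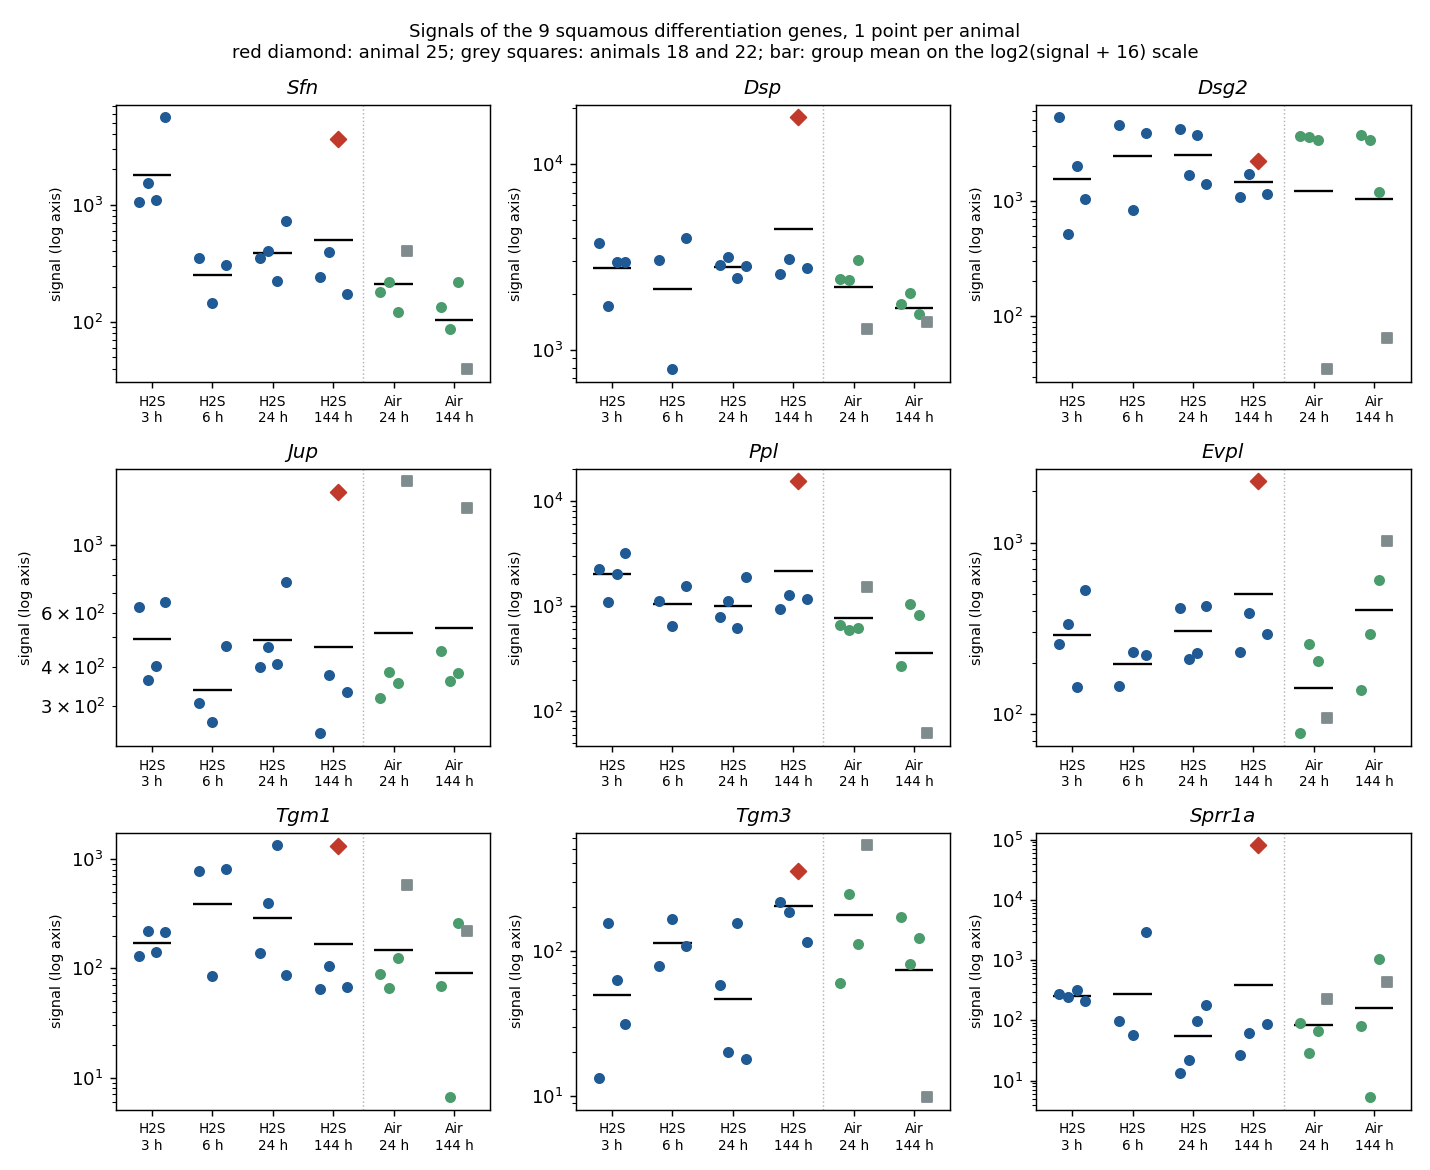
Signal of each of the 9 genes (log axis) in each animal, by group, with H2S groups as blue points, air groups as green points and a bar for the group mean on the log2(signal + 16) scale. The red diamond is animal 25, which lies above the other 3 rats of its group for every gene, and the grey squares are animals 18 and 22.

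Sfn encodes 14-3-3 sigma, an adaptor protein of epithelial cells that holds back the cell cycle and that p53 induces. Its signal was 1061, 1532, 1092 and 5575 at 3 h after H2S, 352, 144 and 304 at 6 h, 352, 401, 222 and 732 at 24 h, and 241, 398, 3616 and 174 at 144 h. Air rats had 181, 221, 122 and 404 at 24 h, and 133, 87.7, 218 and 39.4 at 144 h. All 4 rats at 3 h thus lay above all 4 air rats of 24 h, while the exposed and air groups overlapped at 24 h and 144 h. At 3 h the mean log2 level was 10.81 ± 1.12 in H2S and 7.83 ± 0.67 in air animals of 24 h (SD, n = 4 each). The change was 2.98 (SE 0.72), or 7.87-fold, with a limma adjusted p of 0.164. The spread shared by all groups includes animal 25, and without that animal the same change of 2.98 had an SE of 0.54 and passed the threshold, with a limma adjusted p of 0.0369. It also passed with array weights (3.29, adjusted p = 0.0189) and without animals 18, 22 and 25 together (3.27, adjusted p = 0.00895), and in none of the other 33 of 36 alternatives, whose adjusted p reached 0.929. Without animal 6, the highest of the 3 h group, the change was 2.43 (adjusted p = 0.572).

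Markers of other cell types were mixed at 3 h, where 55.4% of all tested probe sets had a positive change. None of these markers was called, beside 0.0807% of all tested probe sets. All 4 basal and repair keratins on the array had positive changes, with summed signals of 12905 to 61404 in the 4 H2S rats at 3 h and 3825 to 9684 in the 4 air rats of 24 h. Krt17, a keratin of wounded epithelium, had the smallest p among them, with a change of 3.43 (SE 0.94) and a limma adjusted p of 0.250. All 9 ciliated cell markers also had positive changes, with sums of 16059 to 47292 in the H2S rats at 3 h and 10291 to 25850 in the air rats, as did 9 of 11 leukocyte markers, with sums of 9256 to 25551 in the H2S rats and 5604 to 16874 in the air rats. Positive changes stood in 7 of 9 skeletal muscle, 7 of 12 secretory and goblet cell, 4 of 9 nasal gland, 3 of 9 stroma and vessel, 3 of 8 cartilage and bone, and 2 of 10 olfactory markers, the last with a median of -0.61. Of 16 markers of keratinized squamous epithelium, 8 had a positive and 8 a negative change at 3 h, with a median of -0.06. The part of these cell types in the Sfn values was not tested.

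At 144 h, Sfn had a mean log2 level of 9.02 ± 1.93 in H2S and 6.90 ± 0.88 in air rats (SD, n = 4 each), a change of 2.13 (SE 0.72) with a limma adjusted p of 0.580. Animal 25 held 9.09 times the highest signal of the other 3 exposed rats. Without it the change was 1.19 (SE 0.59, adjusted p = 0.688).

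The desmosomal members are Dsp, Dsg2 and Jup. Dsp encodes desmoplakin, which links the desmosomal plaque to keratin filaments. Its main probe set read 3766, 1706, 2976 and 2965 at 3 h after H2S, 3016, 783 and 3969 at 6 h, 2834, 3140, 2434 and 2801 at 24 h, and 2560, 3059, 17775 and 2754 at 144 h. The air rats read 2398, 2380, 3021 and 1284 at 24 h, and 1757, 2021, 1550 and 1414 at 144 h. At 144 h every exposed rat lay above every air rat. The groups stayed apart without animal 25, at 2560 to 3059 in the 3 remaining H2S rats and 1414 to 2021 in the 4 air rats, and 4.13% of all probe sets did so with those animals. The mean log2 level of these 3 H2S rats was 11.45, and that of the H2S rats of 24 h was also 11.45. It was 11.09 in air rats of 24 h (11.34 without animal 18) and 10.72 in air rats of 144 h, the lowest of the groups. The fitted change was 1.40 (SE 0.53), or 2.64-fold, with a limma adjusted p of 0.600, and it was 0.73 (SE 0.44, adjusted p = 0.757) without animal 25. The RNA integrity number was 4.8, 5.1, 4.5 and 1.7 in the H2S rats and 5.6, 6.4, 5.1 and 6.9 in the air rats. In a fit of 19 arrays with that number as a covariate the change of Dsp was 1.60, again not called. RNA integrity was mostly lower in the H2S rats, so its part in the Dsp values cannot be told apart from that of exposure. The second Dsp probe set, at signals of 3.45 to 73.6, lay under the array median on all 23 arrays, was not tested and differed by -0.16 to 0.25 between H2S and air groups.

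Dsg2 encodes a desmosomal cadherin that is common in simple and basal epithelium. Its signal was 5283, 517, 1994 and 1029 at 3 h after H2S, 4549, 826 and 3857 at 6 h, 4221, 1688, 3687 and 1410 at 24 h, and 1089, 1697, 2194 and 1134 at 144 h. Among air rats it was 3641, 3533, 3361 and 34.7 at 24 h, and 3738, 3372, 1185 and 64.3 at 144 h. The 2 lowest values are those of animals 18 and 22, whose arrays stood apart, and the other air rats overlapped with exposed rats throughout. Changes were between 0.35 and 1.03 with SEs of 1.19 to 1.28. Without animals 18 and 22 all 4 changes were negative, at -1.18 at 3 h, -0.52 at 6 h, -0.50 at 24 h and -0.74 at 144 h, and none was called. In animal 25 the Dsg2 signal was 1.29 times the highest of the other 3 rats of its group, the smallest such ratio among the members.

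Jup encodes plakoglobin, which binds the tails of cadherins in desmosomes and adherens junctions. Its signal was 628, 364, 404 and 654 at 3 h after H2S, 306, 265 and 469 at 6 h, 401, 464, 411 and 759 at 24 h, and 244, 378, 1487 and 331 at 144 h. Air rats had 319, 385, 355 and 1612 at 24 h, and 451, 361, 384 and 1315 at 144 h. The 3 highest values belong to animal 25 and to animals 18 and 22. All changes were between -0.60 and -0.06, with SEs of 0.54 to 0.58. Without animals 18 and 22, the exposed rats at 24 h lay above the air rats for Jup and for Sfn, as did 3.53% of all probe sets, and the change of Jup at 3 h was 0.48 in place of -0.06.

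Ppl and Evpl encode periplakin and envoplakin, plakins that sit in desmosomes and become part of the cornified envelope. For Ppl the signal was 2279, 1088, 2034 and 3212 at 3 h after H2S, 1122, 651 and 1568 at 6 h, 782, 1128, 626 and 1880 at 24 h, and 945, 1266, 15436 and 1168 at 144 h. In air animals it was 661, 593, 613 and 1525 at 24 h, and 270, 1050, 823 and 61.7 at 144 h. The groups overlapped in every comparison, at 3 h through animal 18 alone: without animals 18 and 22, the exposed rats at 3 h lay above the air rats for Ppl, Sfn, Tgm1 and Sprr1a, as did 4.51% of all probe sets. The change of Ppl was 1.35 (SE 0.77, limma adjusted p = 0.558) at 3 h and 2.54 (SE 0.77, adjusted p = 0.580) at 144 h. Without animal 25 the change at 144 h was 1.60 (SE 0.66, adjusted p = 0.620), and without animals 18, 22 and 25 it was 0.84 (SE 0.49, adjusted p = 0.490).

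Evpl gave 257, 338, 145 and 533 at 3 h after H2S, 146, 232 and 223 at 6 h, 418, 211, 228 and 427 at 24 h, and 229, 388, 2274 and 295 at 144 h. Air rats gave 77.7, 256, 205 and 95.7 at 24 h, and 140, 293, 609 and 1021 at 144 h. Exposed and air rats overlapped at each time. The change was 0.94 at 3 h, 0.42 at 6 h, 1.02 at 24 h and 0.29 at 144 h, with SEs of 0.62 to 0.67, and it was -0.42 at 144 h without animal 25.

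Tgm1 encodes the membrane-bound transglutaminase that starts the cross-linking of the envelope. Its signal was 130, 219, 142 and 216 at 3 h after H2S, 786, 84.6 and 821 at 6 h, 139, 395, 1350 and 86.3 at 24 h, and 65.4, 106, 1331 and 67.8 at 144 h. Among air rats it was 89.8, 66.8, 124 and 585 at 24 h, and 69.3, 6.61, 263 and 222 at 144 h. High values thus stood in single animals of several groups, 2 of 3 rats at 6 h and 1 rat each at 24 h and 144 h among them, and the groups overlapped. The largest change was 1.31 (SE 1.05) at 6 h, and none was called. Tgm1 lay above the array median on 9 of 23 arrays.

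Tgm3 encodes a transglutaminase of the epidermis and hair follicle that is activated by proteolysis. It gave 13.4, 156, 63.2 and 31.3 at 3 h after H2S, 78.6, 165 and 109 at 6 h, 58.1, 20, 156 and 18.1 at 24 h, and 216, 186, 356 and 116 at 144 h. The air rats gave 59.8, 244, 112 and 534 at 24 h, and 172, 80.7, 123 and 9.84 at 144 h. These are low signals, above the array median on 5 of 23 arrays, and the size of a change rests partly on the pseudocount. The change was -1.55 (SE 0.68, limma adjusted p = 0.475) at 3 h, -1.62 (SE 0.68, adjusted p = 0.612) at 24 h and 1.28 (SE 0.68, adjusted p = 0.672) at 144 h. The exposure effect at 144 h minus that at 24 h was 2.90 (SE 0.96). This is the smallest p of any member for that difference, and it did not pass, with a limma adjusted p of 0.946. Animals 18 and 22 held the highest and the lowest Tgm3 signal of all 23. Without animal 22 the change at 144 h was 0.68. Without animals 18 and 22 the difference between the effects was 1.80, and without animals 18, 22 and 25 it was 1.54.

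Sprr1a encodes a small proline-rich protein that transglutaminases cross-link into the envelope. Its signal was 275, 242, 314 and 207 at 3 h after H2S, 98.2, 56.8 and 2965 at 6 h, 13.4, 21.9, 98.1 and 182 at 24 h, and 26.6, 60.6, 81140 and 88.3 at 144 h. Air rats had 91.5, 28.6, 66.8 and 230 at 24 h, and 80.6, 5.30, 1031 and 439 at 144 h. The 2 highest values belong to animal 25 and animal 10 (H2S, 6 h), the third to an air rat, animal 21, and the groups overlapped at every time. Animal 21 also carried skeletal muscle transcripts, with a summed signal of 222638 over 9 genes, while the lowest air rat of 144 h had 7232, and their part in the Sprr1a value was not tested. The mean log2 level at 144 h was 8.67 ± 5.12 in H2S and 7.47 ± 2.49 in air rats (SD, n = 4 each), a change of 1.20 (SE 1.68, limma adjusted p = 0.898). With animal 25 left out the change was -1.34 (SE 1.14, adjusted p = 0.846), of the opposite sign and again not called.

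**Figure D2:**
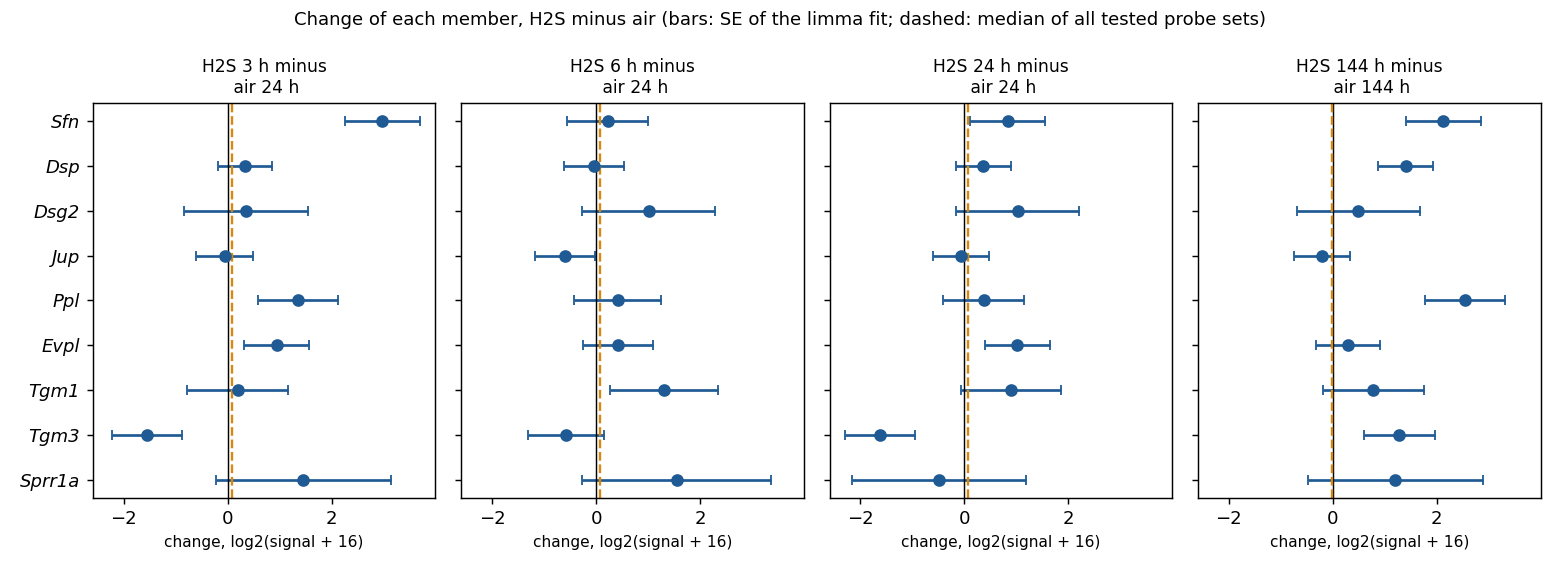
Change of each member between H2S and air animals at 3 h, 6 h, 24 h and 144 h on the log2(signal + 16) scale, with bars for the SE of the limma fit and a dashed line for the median of all tested probe sets. Sfn at 3 h (2.98) and Ppl at 144 h (2.54) are the largest changes, and none passed the threshold with all 23 arrays.

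Set in order by mean log2 level, the 6 groups did not form the same series for each gene. For Sfn the order was H2S at 3 h, H2S at 144 h, H2S at 24 h, H2S at 6 h, air at 24 h and air at 144 h. Of neighbours in that order, only the 2 air groups were further apart, by 0.94, than the larger of their SDs, 0.88. For Ppl the order began with H2S at 144 h and H2S at 3 h, and the step from there to H2S at 6 h, 0.93, exceeded the larger SD, 0.65. No other pair of neighbours did so for any of the 9 genes. Between air rats of 144 h and of 24 h, 0 of 9 members were called (limma), beside 0% of all tested probe sets. At an unadjusted p of 0.05 it was 1 member, Evpl, with a change of 1.41 (SE 0.62, adjusted p = 0.583), beside 8.37%. The test of the exposure effect at 144 h minus that at 24 h called 0 members beside 0% of all tested probe sets, and 1 member, Tgm3, beside 4.69% at an unadjusted p of 0.05.

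Animal 25 stood above the other 3 rats of its group in all 9 members, where 25.9% of all tested probe sets did. It had the highest signal of all 23 animals in 4 of 9 members, Dsp, Ppl, Evpl and Sprr1a, where it had the highest in 3.01% of all tested probe sets. Its Sprr1a signal was 919 times the highest of the other 3 rats of its group and 27.4 times the highest of the other 22, that of animal 10. The same ratios to the rest of its group were 12.6 for Tgm1, 12.2 for Ppl, 9.09 for Sfn, 5.86 for Evpl, 5.81 for Dsp, 3.94 for Jup, 1.64 for Tgm3 and 1.29 for Dsg2. Sfn was higher in animal 6, Tgm1 in animal 13, Tgm3 and Jup in animal 18, and Dsg2 in several. These values describe 1 animal that was singled out for them, and they carry no test.

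**Figure D3:**
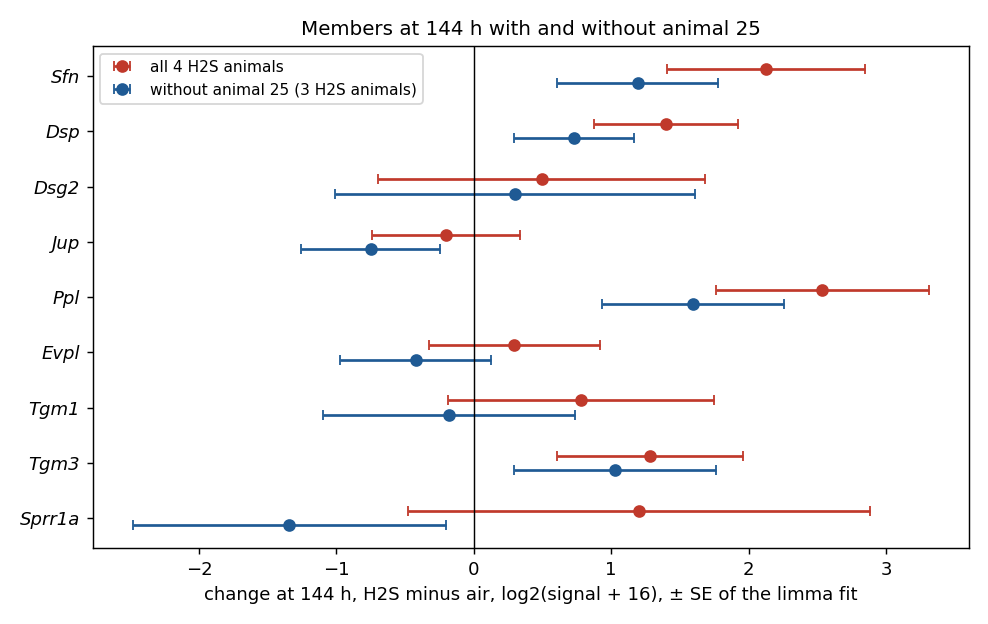
Change of each member at 144 h, H2S minus air, on the log2(signal + 16) scale with the SE of the limma fit, for all 4 exposed rats (red) and without animal 25 (blue). Sprr1a is at 1.20 with the animal and at -1.34 without it, and Tgm1 and Evpl also turn negative, at -0.18 and -0.42. Jup is negative in both fits, and Dsp, Ppl, Sfn, Tgm3 and Dsg2 are positive in both. The SE of Dsg2 is larger than its change in both fits, and without animal 22 that change is -0.74.

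Many other genes of the squamous programme were high in the same animal. Of 26 symbols listed as markers of keratinized squamous epithelium, 16 had a probe set. In 12 of these, animal 25 had the highest signal, as it had in 3.01% of all tested probe sets. In 9 of 16, or 56.2%, that signal was over 10 times that of every other animal, as it was in 0.0858% of all tested probe sets. Only 8 of the 16 were tested, since the filter asks for a signal above the array's median on at least 3 arrays. Probe sets high in animal 25 alone are therefore missing from both shares of all tested probe sets, and the list counts are not directly comparable with them. The suprabasal keratins read 44867 for Krt10, 17974 for Krt13 and 4746 for Krt4 in animal 25, against at most 376, 42.9 and 56.4 in the other 3 exposed rats of 144 h. Krtdap, a protein of differentiating keratinocytes, read 20973 and at most 22.3, Cnfn, a component of the cornified envelope, read 19420 and at most 150, and Sprr3, another small proline-rich protein, read 14747 and at most 17.1. Krt4 and Krt13 are the keratin pair of stratified mucosa such as oesophagus, whereas Krt1 and Krt10 are the pair of epidermis. Krt1 read 569 in animal 25 and at most 38.5 in the other 3. Not all genes listed with the cornified envelope and barrier were high. Ivl, involucrin, read 74.2, Sprr1b 53.7, Lce1f 40.6 and Rhcg 73.8, all under that array's median of 151. Tgm2, a widely expressed transglutaminase, read 3129 in animal 25 and 4104 to 8843 in the other 3 rats.

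Other lists of the programme showed the same animal. It was the highest of 23 in 14 of 24 further cornified envelope, cross-linking and barrier genes and in 4 of 8 further desmosome and adhesion genes. The same held in 6 of 9 squamous transcription factors and 3 of 4 basal keratins, beside 3.01% of all tested probe sets. That share covers tested probe sets only, while 16 of the 24 cornified and 6 of the 8 desmosome genes were tested. Animal 25 was singled out and the lists were chosen with earlier results known, so the counts of all these lists describe that animal and carry no test. Among these, Pkp1, plakophilin of stratified epithelium, read 8234 and at most 322 in the rest of the group, Dsc2, a desmosomal cadherin, 20389 and at most 1335, and Hopx, a homeodomain cofactor, 44488 and at most 1717. Klf4, a transcription factor of barrier formation, read 9479 and at most 1257, and Tp63, the factor that maintains basal cells, 1951 and at most 768. The basal keratins Krt5 and Krt14 read 16314 and 32687 in animal 25, against at most 911 and 2752 in the other 3 rats. Of the keratinized markers, 7 also stand in the desmosome or cornified lists.

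Markers of the respiratory lining and of neighbouring tissues were not highest in animal 25. For 9 ciliated cell markers the count was 0, and their median difference from the mean of the other 3 rats of the group was -1.26 on the log2 scale, while their median difference from the median of the other 22 animals was -0.05. Foxj1, the regulator of motile cilia, read 578 in animal 25 and 1055 to 1746 in the other 3. The summed ciliated signal was 22705 in animal 25, 57222 to 68260 in the other 3 exposed rats of 144 h, and 7657 to 54530 in the 4 air rats. The counts were likewise 0 of 12 for secretory and goblet cells, 0 of 9 for nasal glands, 0 of 10 for olfactory cells, 0 of 9 for skeletal muscle, 0 of 9 for stroma and vessels, 0 of 8 for cartilage and bone, and 0 of 11 for leukocytes. Animal 25 had the highest signal in 3.01% of all tested probe sets, so counts of 0 in such short lists lie near that share. The RNA integrity number of animal 25 was 4.5 and its spike-in signal 13.09 on the log2 scale, between those of other arrays. Whether its epithelium had turned squamous or squamous tissue had been captured with respiratory epithelium cannot be told apart from 1 array of mixed RNA, and was not tested.

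**Figure D4:**
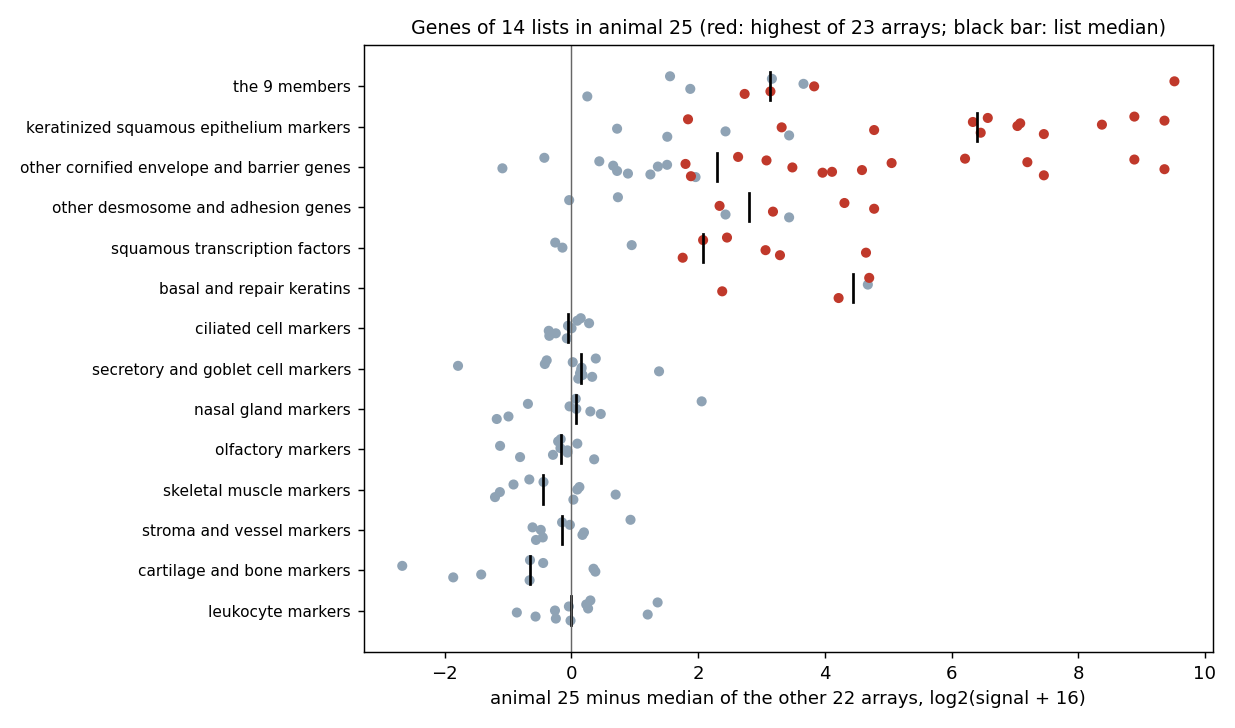
Difference between animal 25 and the median of the other 22 animals, on the log2(signal + 16) scale, for each gene of 14 lists, with red points where animal 25 is the highest of 23 and a black bar for the list's median. The squamous lists lie to the right, with a median of 6.40 for the keratinized markers and 3.14 for the 9 members, and the ciliated median is -0.05.

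Weaker squamous signals stood in single animals elsewhere. Over the 16 keratinized markers, the summed signal was 162798 in animal 25 and 1210 to 1601 in the other 3 exposed rats of 144 h. It was 1113 to 1859 at 3 h, 1369 to 3480 at 6 h and 1384 to 2067 at 24 h after H2S, and 1107 to 7317 in air rats of 24 h and 1287 to 3718 in air rats of 144 h. The highest of the 6 h group was animal 10, with 1106 for Krt10 and 992 for Scel, sciellin, a precursor of the envelope. The highest air values belong to animals 18 and 22, whose arrays stood apart over all genes. Without animal 25, the mean log2 level of the 9 members was 8.33 to 8.83 in exposed rats at 144 h and 7.85 to 9.07 in air rats.

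**Figure D5:**
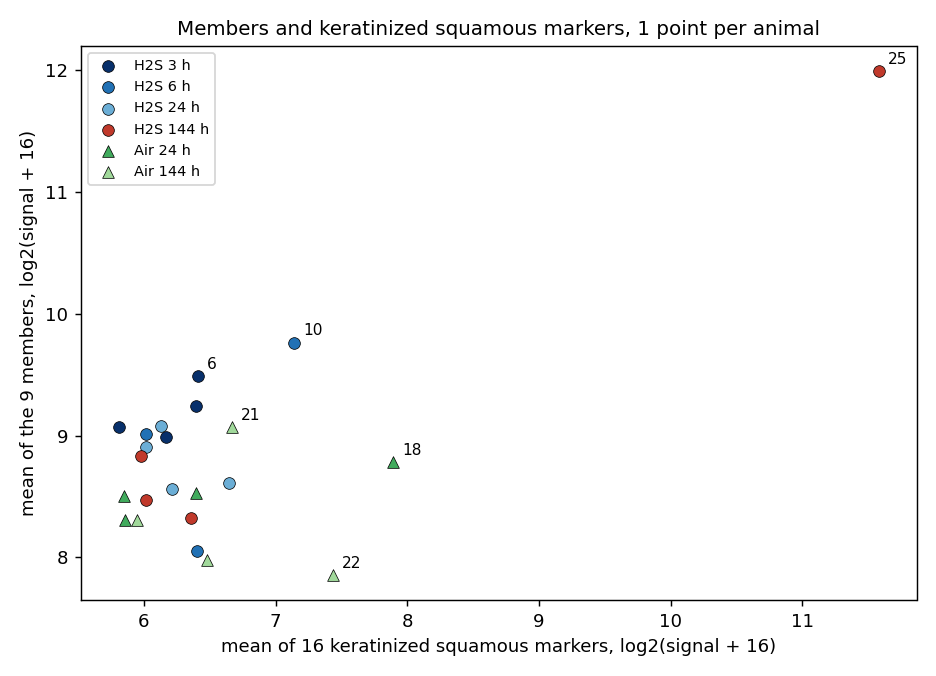
Mean log2(signal + 16) of the 9 members against that of 16 keratinized squamous markers, 1 point per animal, with circles for H2S and triangles for air groups. Animal 25 is at 11.99 for the members and 11.58 for the markers, and the other 22 animals reach at most 9.76 for the members.

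The other genes of the pathway gave no calls either. At 144 h, 0 of 6 tested genes of the further desmosome list and 0 of 16 of the further cornified list rose or fell (limma). The counts were also 0 of 9 squamous transcription factors, 0 of 8 keratinized markers and 0 of 4 basal keratins. Of all tested probe sets, 0% were called. The median changes of these lists over all genes on the array were 0.82, 0.48, 0.80, 0.81 and 1.28, where that of all tested probe sets was -0.02. These values include animal 25. Without it the medians were -0.03 for the desmosome list, -0.33 for the cornified list, 0.06 for the transcription factors, -0.73 for the keratinized markers and 0.41 for the basal keratins. Anxa1, a membrane-binding protein that is also an envelope component, had one of the 2 smallest p in the cornified list, with a change of 1.90 (SE 0.56, adjusted p = 0.580), and so had S100a14, a calcium-binding protein of epithelia, with 1.45 (SE 0.49, adjusted p = 0.580). At 3 h the counts were again 0, beside 0.0807% of all tested probe sets. The median changes were 0.13 for the desmosome list, 0.53 for the cornified list, 0.36 for the transcription factors, -0.06 for the keratinized markers and 1.99 for the basal keratins. Without animals 18 and 22 that of the desmosome list was -0.14 and that of the keratinized markers 0.40, both of the opposite sign. Anxa1 had a change of 1.99 (SE 0.56, adjusted p = 0.275) at 3 h. At 24 h, Sox15, a Sox factor of epithelium and muscle, had a change of 1.96 (SE 0.71, limma adjusted p = 0.600). Of the transcription factors 0 were called, beside 0.0101% of all tested probe sets. A positive change stood in 7 of 9 of them, beside 54.9% of all tested probe sets, with a median of 0.29. Without animals 18 and 22 it was 4 of 9 beside 48.3%, with a median of -0.06.

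Once animal 25 was set aside, the correlations between members were of mixed sign. Over 23 arrays, on log2 values minus the array's mean, the median Pearson correlation of the 36 pairs of members was 0.300, with 30 pairs positive. Over the 22 arrays without animal 25 it was 0.058, with 22 pairs positive and a range of -0.641 to 0.773. Dsp and Ppl followed the mean of the other 8 members most closely over 23 arrays (0.774 and 0.735), and Dsg2 did so least (-0.095). The genes most like the members' mean over 23 arrays, among 11228 compared, were Scel, Crabp2, Calml5, Dennd2c, Krt6c, Padi1, Psca, Sprr3, Krt12 and Mall, with Pearson correlations of 0.801 to 0.837. Rank correlations of the same genes were lower, 0.332 to 0.718. Without animal 25 the 10 genes were Serpinb2, Kcnj14, Akap12, Slc20a2, Gprc5a, Kansl3, Adam17, Hspa1a, Parp12 and Gcnt2, at 0.689 to 0.794. These correlations are descriptions over arrays that share groups, and they carry no test.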

How the data were processed

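The values are intensities deposited by the authors, 1 linear signal for each probe set and array. The submitters' processing notes name GCOS 1.0, and no source used here gives its settings. With 2% of values trimmed from either end, the mean signal was 500.1 to 500.2 on each array, from which a scaling by the authors was inferred, and no further normalization was applied. Genes come from the platform annotation, in which 20832 probe sets have 1 symbol, 436 several and 9831 none. A gene with several probe sets is represented by the one with the highest mean.

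The deposited signals were taken as log2(signal + 16) and fitted with limma 3.58.1 in R 4.3.3 (lmFit, eBayes, 1 mean per group, all 23 arrays), two-sided, with Benjamini-Hochberg adjustment. Tested probe sets were above their array's median on at least 3 arrays, and 57 controls were left out, which kept 19822. The fit was also run on simulated data, with independent normal noise and the same shift in every H2S rat of 144 h. No single animal or array stood apart in that simulation, so it does not show how the fit behaves with animals 18, 22 and 25. The 9 members and the 14 lists, which include 13 lists of other genes, were chosen with earlier results of these data known. By the rule for named genes, all members are named, the 2 smallest p of a list where none passed, the 10 genes most like the members, the largest gaps of animal 25 and fixed cell markers. P-values measure the spread between animals, each with 1 array. The alternatives changed the pseudocount (1 or 64), the normalization (quantile, or median centring), the filter (none), the fit (trend and robust eBayes, weights per array, a covariate for RNA integrity, the groups compared alone) and the animals left out. Leaving out animals 18, 22 and 25 together and the fit of 19 arrays without the covariate were added later.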

Additional observations from a re-analysis of the deposited data

Results flagged for a closer look

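Dixon's ratio is the gap between an extreme animal and its nearest neighbour over the whole range of its group. It was computed in 50 groups of 4 animals over the 10 member probe sets and passed the 95% limit for 10. The probe sets share the same arrays, so these groups are not independent and no chance rate is set beside the count. Animal 25 was singled out beforehand, so its flags describe it and carry no test. It was the extreme one in 4 of the 10, on the high side of the H2S group of 144 h. Its ratios were 0.908 for Dsp, 0.857 for Tgm1, 0.896 for Ppl and 0.881 for Sprr1a. Animal 18 (air, 24 h) was low for Dsg2, at 0.981, and high for Jup and Ppl, at 0.885 each. Animal 22 (air, 144 h) was high for Jup, at 0.831. For the dim second Dsp probe set, animal 13 (H2S, 24 h) gave 0.856 and animal 20 (air, 144 h) 0.832, both at signals under the array median.

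Tgm3 stood out by direction: every H2S rat of 24 h lay below the mean of its air group and every H2S rat of 144 h above the mean of its own, a difference between the effects of 2.90 on the log2 scale. The limma test of that difference gave an adjusted p of 0.946, so it did not pass. That every rat lay on its side depends on animals 18 and 22. Without them the air means were 7.09 at both times, with animal 13 (H2S, 24 h) above at 7.43 and animal 26 (H2S, 144 h) below at 7.04. The difference between the effects was then 1.80. No explanation of these values was tested.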

How the results depend on the processing

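The 6 counts of members called and the 6 median changes were recomputed under 36 alternatives each, 432 values in all. Of these, 425 kept their count or moved by less than the spread of the members' median level within groups (SD 0.863, log2). That spread includes animal 25 and is larger than the medians at 3 h, 6 h and 24 h. A median there could change its sign and still be counted as kept, so this count is a weak check. At 3 h, 1 member, Sfn, was called with array weights and without animals 18, 22 and 25, and leaving out each animal in turn gave 0 to 1, with the 1 for animal 25. In the other 5 comparisons the count was 0 throughout. The median at 144 h, 0.99, was 0.11 without animals 18, 22 and 25 and ran between 0.0608 (without animal 25) and 1.34 (without animal 26) when 1 animal was left out. The median difference between the effects at 144 h and 24 h, 0.47, was -0.59 without animals 18, 22 and 25 and ran between -0.55 (without animal 25) and 1.00 (without animal 18). Of 1944 values for single members, 104 had the opposite sign to the value given, over 26 of 54 results, and 3 of these reversed a change larger than its SE: Sfn in the difference between effects, at -0.30 without animals 18, 22 and 25, and Tgm3 between air at 144 h and 24 h, at 0.0023 without animals 18 and 22 and the same without animal 25 as well. The cause was not tested. Median centring moved every change by 0.34 at 144 h, by 0.27 at 24 h, by 0.26 at 6 h and by 0.18 at 3 h.

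No paired analysis was possible because each animal has a number of its own and no number is shared between groups. No detection calls were used, and Tgm1, Tgm3 and Sprr1a lay above the array median on 9, 5 and 9 of 23 arrays, so their values limit what these data can show.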
